A study of Mus musculus with 4 samples.

Results

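The acute phase genes described here are *Clu*, *Hp*, *Lcn2*, *Saa3*, *Cp*, *Serpina3n*, *Lbp* and *Orm1*, which were taken by symbol and make up 8 of the 24391 genes counted by RNA-seq in quiescent mouse embryonic fibroblasts (MEFs). They were picked with the *Phf2* KO to WT comparison of these libraries already known, so their values in that comparison are given as a description. The calls that fits across all genes made for them are listed once, and support nothing. RNA-seq was done on 2 WT and 2 *Phf2* KO libraries of primary MEFs, grown from E13.5 embryos. All 4 libraries are labelled Phf2 flox/flox, ERCre/+, that is, with floxed *Phf2* and 1 allele of the tamoxifen-inducible recombinase CreERT2, expressed from Rosa26. The sample descriptions read Tamox for the *Phf2* KO libraries and noTamox for the WT libraries. The protocol, worded alike for all 4, gives 0.5 µM 4-hydroxytamoxifen (4-OHT) for 7 days in Opti-MEM with 2% charcoal-treated serum. No library had 4-OHT or Cre activity without loss of Phf2, so these cannot be told apart. The labels number the libraries of each group 1 and 2 and do not say whether they came from separate embryos. P-values therefore measure only the spread between these libraries.

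Acute phase proteins are secreted proteins whose level in plasma changes during inflammation, infection or injury. Most plasma acute phase protein is made by hepatocytes, which respond to interleukin-6 and interleukin-1 through the transcription factors STAT3, C/EBP and NF-κB. Several of these genes are also expressed outside the liver, in fibroblasts, adipocytes, macrophages and epithelia. Phf2 is a PHD finger protein that reads trimethylated histone H3 lysine 4 at active promoters.

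The libraries held between 21094743 and 26094268 counts. A count of 3, taken as the floor of detection, was worth between 0.116 and 0.145 normalized CPM (counts scaled to library size after TMM normalization), which covers counting error only. *Phf2* was counted at 135 and 142 CPM in WT and at 70.2 and 89.8 CPM in *Phf2* KO, so each *Phf2* KO library was below each WT library. Its log2 difference was -0.79 (standard error 0.14), which the main test of edgeR, with genotype as its only term, did not call. The replicate block called *Phf2* lower. Since the main test missed the targeted gene itself, its counts of 0 calls below do not show that genes were unchanged. Fibroblast markers were abundant in each library, with *Col1a1* counted between 452469 and 716012 times. Their summed level in replicates 1 and 2 was 63709 and 70780 CPM for WT, and 60549 and 58851 CPM for *Phf2* KO. Of the 10 fibroblast markers, 5 had both *Phf2* KO libraries below both WT libraries, as had 18.0% of genes, and 0 had both above, as had 15.5%. The main test of edgeR called 0 of the 10, and the replicate block called 1 lower in *Phf2* KO. Of 12 hepatocyte markers, 8 were at 3 counts or fewer in every library, among them *Alb* and *Ttr*. *Afp*, also a defining hepatocyte marker, passed the filter on low counts. Its log2 difference was 0.28 between *Phf2* KO and WT, and 2.69 between replicates 1 and 2. The summed level of the hepatocyte markers was 1.04 to 1.66 CPM. Of 9 neutrophil markers in the table, 7 were at 3 counts or fewer in every library. The epithelial markers *Epcam* and *Cdh1* and the endothelial markers *Pecam1* and *Cdh5* had 6 counts or fewer, and the adipocyte markers *Adipoq* and *Plin1* 9 or fewer. In each of these 3 lists, 5 of 8 markers exceeded 3 counts in at least 1 library, among them *Kdr* (135 to 441 counts), *Fabp4* (126 to 333), *Pparg* (154 to 300) and *Krt19* (67 to 83), which apart from *Fabp4* were named after their values were seen, and the replicate block called *Kdr* lower in *Phf2* KO. The defining epithelial marker *Krt8* was also above 3 counts in at least 1 library. The summed level was 9.53 to 22.1 CPM for the endothelial, 12.5 to 26.6 CPM for the adipocyte and 3.49 to 4.45 CPM for the epithelial markers. Macrophage markers were present: all 15 in the table exceeded 3 counts in at least 1 library, and their summed level in replicate 1 was 3732 CPM for WT and 4231 CPM for *Phf2* KO, beside 809 and 1277 CPM in replicate 2. Of the 14 macrophage markers tested, the replicate block called 7 higher in *Phf2* KO and 0 lower, where it called 5.77% and 5.20% of genes. With genotype as the only term, edgeR's quasi-likelihood test called 0 of the 14. Replicate 1 was female and replicate 2 male in both groups by Y-linked genes (*Ddx3y* was counted 6 and 10 times in replicates 1, and 1271 and 1295 times in replicates 2). By this difference in sex, replicates 1 and 2 of a group did not come from the same embryo, though the labels do not say so. Since these are bulk samples, fewer cells of a type and less RNA per cell cannot be told apart.

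The regulatory sequence of members is shown first, because STAT3, C/EBP and NF-κB are the textbook regulators of this response. RefSeq promoters (GRCm38.p6) were matched for *Lcn2*, *Cp*, *Saa3* and *Serpina3n*, and *Clu*, *Hp*, *Lbp* and *Orm1* had no entry. *Saa3* and *Serpina3n* are printed as members whose mean levels differed in opposite directions between *Phf2* KO and WT. *Lcn2* is printed as a member with few counts, between 3 and 15 in a library. Each runs 5′ to 3′ along the gene's strand from 250 bases before the annotated start. That of *Serpina3n* is cut at 188 bases, where a longer RefSeq gene model begins, and that of *Saa3* lies within a longer model of the gene. *Saa3* is at chr7:46715677-46715926 on the reverse strand, *Serpina3n* at chr12:104406458-104406645 on the forward strand and *Lcn2* at chr2:32387740-32387989 on the reverse strand. Capitals mark matches to the motifs named after the sequences.
Saa3: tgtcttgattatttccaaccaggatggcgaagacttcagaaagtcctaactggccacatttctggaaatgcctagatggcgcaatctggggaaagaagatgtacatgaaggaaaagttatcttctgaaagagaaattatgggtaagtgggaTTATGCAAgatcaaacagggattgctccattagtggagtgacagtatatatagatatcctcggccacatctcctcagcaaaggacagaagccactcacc
Serpina3n: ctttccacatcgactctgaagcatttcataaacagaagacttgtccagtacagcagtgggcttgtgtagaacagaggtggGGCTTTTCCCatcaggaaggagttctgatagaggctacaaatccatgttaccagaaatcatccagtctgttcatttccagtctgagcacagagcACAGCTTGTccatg
Lcn2: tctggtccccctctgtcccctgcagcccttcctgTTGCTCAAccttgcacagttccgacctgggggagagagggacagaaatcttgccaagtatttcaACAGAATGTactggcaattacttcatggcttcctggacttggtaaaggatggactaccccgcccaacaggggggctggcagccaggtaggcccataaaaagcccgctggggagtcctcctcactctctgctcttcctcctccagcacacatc
The motifs searched on both strands were TTCNNNGAA for STAT, GGGANNNNCC for NF-κB, TTGCNNAA for C/EBP and ACANNNTGT for the glucocorticoid receptor, and TATAAA was searched on the gene's strand. In the 250 bases of 32851 promoters, these letters were found in 7.02%, 17.6%, 9.56%, 5.84% and 7.59%. *Saa3* held 1 C/EBP match, TTATGCAA, which begins at -99 from the start. *Serpina3n* held a NF-κB match, GGCTTTTCCC, at -170 and a glucocorticoid receptor match, ACAGCTTGT, at -76, and another NF-κB match, GGGAGGAGCC, at -43, outside the printed stretch. *Lcn2* held a C/EBP match, TTGCTCAA, at -216 and a glucocorticoid receptor match, ACAGAATGT, at -152. Of the pair of *Cp* starts in RefSeq, 1 held NF-κB, C/EBP and TATA matches and the other none. No STAT match was found in the windows of these 4 members. A match describes letters in a window and not a bound site.

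Per kilobase of exon, *Clu* was the most abundant member, with a mean of 78.1 CPM per kb over the 4 libraries, above 95.2% of the tested genes with a known exon length. *Hp* followed with 32.4, *Saa3* with 5.44, *Serpina3n* with 4.59, *Lbp* with 2.18, *Cp* with 1.68, *Lcn2* with 0.140 and *Orm1* with 0.0156 CPM per kb. *Clu* was above *Hp* in each library, although the ranges over libraries overlapped (46.6 to 116 and 10.8 to 66.4 CPM per kb). The order of *Saa3* and *Serpina3n* differed between the groups. Per kilobase, *Serpina3n* was the higher in both WT libraries (6.98 and 4.01 against 5.70 and 2.61 CPM per kb), and *Saa3* in both *Phf2* KO libraries (7.73 and 5.72 against 5.17 and 2.22). *Lbp* was above *Cp* in each library, by 2.04 against 2.00 CPM per kb in the closest. The plot of CPM by library shows the members in this order.

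**Figure D1:**
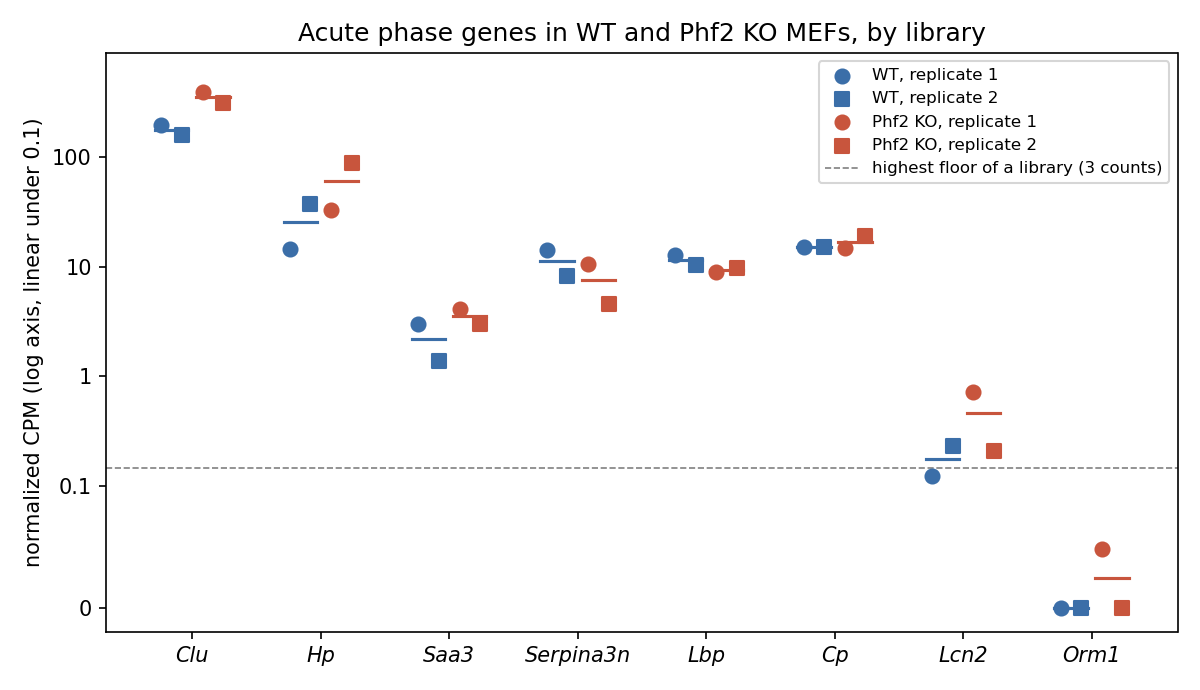
Normalized CPM of the 8 acute phase genes in each library (points; log axis that is linear under 0.1) with the group means (lines, n = 2), ordered by level per kilobase. *Clu* lies above the other members in each library, and *Hp* spans 14.4 to 89.2 CPM and so overlaps *Cp*. *Lcn2* lies at or near the floor of 3 counts (dashed) except in *Phf2* KO replicate 1 (0.724 CPM), and *Orm1* lies under it.

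*Clu* encodes clusterin, a secreted chaperone also known as apolipoprotein J, which binds misfolded proteins and inhibits the terminal complement complex. On mm9, *Clu* spans chr14:66587320-66600385 (forward strand, 14 exon blocks). *Clu* counts in replicate 1 were 4807 for WT and 8298 for *Phf2* KO, and in replicate 2 they were 4157 for WT and 7561 for *Phf2* KO. Both *Phf2* KO libraries were above both WT libraries. WT libraries averaged 179.8 ± 27.7 CPM (SD, n = 2), compared with 358 ± 60.8 CPM (SD, n = 2) for *Phf2* KO libraries, a log2 difference of 0.99 (standard error 0.18), or 1.99-fold. Within replicate 1 the ratio of *Phf2* KO to WT was 2.01 (95% counting interval 1.94 to 2.08), and within replicate 2 it was 1.96 (1.89 to 2.04). The intervals of the replicate numbers thus overlapped. The summed level of the macrophage markers was 1.13 times and 1.58 times that of WT in *Phf2* KO replicates 1 and 2, and their part in the differences of *Clu* and *Hp* was not tested.

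*Hp* encodes haptoglobin, which binds free haemoglobin in plasma. On mm9, *Hp* spans chr8:112099030-112103072 (reverse strand, 5 exon blocks). *Hp* counts in replicate 1 were 348 for WT and 681 for *Phf2* KO, and in replicate 2 they were 970 for WT and 2144 for *Phf2* KO. The groups overlapped, because *Phf2* KO replicate 1 (32.9 CPM) was below WT replicate 2 (37.4 CPM), whereas each *Phf2* KO library was above the WT library of its own number. WT libraries averaged 25.9 ± 16.2 CPM (SD, n = 2), compared with 61.0 ± 39.8 CPM (SD, n = 2) for *Phf2* KO libraries, a log2 difference of 1.24 (standard error 0.66), or 2.36-fold. Within replicate 1 the ratio of *Phf2* KO to WT was 2.28 (95% counting interval 2.00 to 2.60), and within replicate 2 it was 2.39 (2.21 to 2.58). With a library left out, the log2 difference was 0.35 without *Phf2* KO replicate 2, 0.72 without WT replicate 1, 1.78 without *Phf2* KO replicate 1 and 2.06 without WT replicate 2.

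*Cp* encodes ceruloplasmin, a copper-carrying ferroxidase that helps load iron onto transferrin. On mm9, *Cp* spans chr3:19857054-19909145 (forward strand, 22 exon blocks), and overlaps *Hps3* on the other strand. *Cp* counts in replicate 1 were 366 for WT and 310 for *Phf2* KO, and in replicate 2 they were 394 for WT and 460 for *Phf2* KO. The levels of 15.2 and 15.2 CPM in WT lay between the 15.0 and 19.1 CPM of *Phf2* KO replicates 1 and 2, so the groups overlapped. The log2 difference of 0.17 (standard error 0.16) was close to its standard error, and turned to -0.023 when *Phf2* KO replicate 2 was left out (0.33 when *Phf2* KO replicate 1 was). The ratio of *Phf2* KO to WT was 0.985 (95% counting interval 0.844 to 1.15) within replicate 1 and 1.26 (1.10 to 1.45) within replicate 2.

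*Lcn2* encodes lipocalin 2, which binds bacterial siderophores and so withholds iron. On mm9, *Lcn2* spans chr2:32240153-32243317 (reverse strand, 3 exon blocks). *Lcn2* counts in replicate 1 were 3 for WT and 15 for *Phf2* KO, and in replicate 2 they were 6 for WT and 5 for *Phf2* KO. *Phf2* KO replicate 1 stood above the other 3 libraries, which lay between 0.124 and 0.231 CPM. The ratio within replicate 1 was 5.82 (95% counting interval 1.65 to 31.3), and within replicate 2 it was 0.900 (0.217 to 3.54). *Lcn2* did not pass the filter on low counts and was not tested.

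*Serpina3n* encodes a serine protease inhibitor of the mouse antichymotrypsin cluster. On mm9, *Serpina3n* spans chr12:105644939-105652539 (forward strand, 5 exon blocks). *Serpina3n* counts in replicate 1 were 347 for WT and 221 for *Phf2* KO, and in replicate 2 they were 215 for WT and 110 for *Phf2* KO. Each *Phf2* KO library was below the WT library of its number, but *Phf2* KO replicate 1 (10.7 CPM) was above WT replicate 2 (8.29 CPM). WT libraries averaged 11.3 ± 4.32 CPM (SD, n = 2), compared with 7.62 ± 4.31 CPM (SD, n = 2) for *Phf2* KO libraries, a log2 difference of -0.58 (standard error 0.50). Within replicate 1 the ratio of *Phf2* KO to WT was 0.741 (95% counting interval 0.623 to 0.880), and within replicate 2 it was 0.552 (0.435 to 0.698). The log2 difference was -1.31 without *Phf2* KO replicate 1, -0.94 without WT replicate 2, -0.11 without WT replicate 1 and -0.09 without *Phf2* KO replicate 2. Of the 50-base stretches in its coding transcripts, 6.75% also occur in transcripts of other genes, among them *Serpina3g*, *Serpina3c*, *Serpina3f* and *Serpina3m*. How reads shared between genes were counted is not given in the sources used here, so the counts of this cluster carry that uncertainty.

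The other genes of the *Serpina3* cluster had lower levels per kilobase than *Serpina3n*. *Serpina3g* had 114 and 62 counts for WT and 124 and 88 for *Phf2* KO, a log2 difference of 0.44 (standard error 0.44), so its value had the opposite sign to that of *Serpina3n*. *Serpina3c* and *Serpina3h* had between 3 and 19 counts. Their log2 differences were -0.89 (standard error 0.51) and -0.61 (standard error 0.79), with the same sign as that of *Serpina3n*. *Serpina3f*, *Serpina3j*, *Serpina3k* and *Serpina3m* had at most 1 count in any library. *Heph*, hephaestin, the membrane-bound relative of ceruloplasmin, had 1282 and 1583 counts in replicates 1 and 2 of WT, and 1018 and 1442 in those of *Phf2* KO, with a log2 difference of -0.07 (standard error 0.14). Of the 6 paralogs tested, 0 were called between the groups by edgeR's quasi-likelihood test, DESeq2, the likelihood ratio test, limma-voom or the block. In the first of these, 1 had an unadjusted p-value below 0.05, as had 4.21% of genes. Of the 6, 1 was higher and 5 were lower in *Phf2* KO. Both *Phf2* KO libraries were below both WT libraries for 3, as for 18.0% of genes, and above both for 0, as for 15.5%. The 3 were *Serpina3c*, *Pltp* (log2 difference -0.16, standard error 0.11) and *Ptgds* (-0.84, standard error 0.32).

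*Saa3* encodes serum amyloid A3, a lipid-binding protein made at sites of inflammation outside the liver. On mm9, *Saa3* spans chr7:53967368-53971046 (reverse strand, 4 exon blocks). *Saa3* counts in replicate 1 were 73 for WT and 85 for *Phf2* KO, and in replicate 2 they were 36 for WT and 73 for *Phf2* KO. The lower *Phf2* KO library and the higher WT library had the same count, and stood at 3.04 and 3.03 CPM only after scaling. WT libraries averaged 2.21 ± 1.16 CPM (SD, n = 2), compared with 3.57 ± 0.754 CPM (SD, n = 2) for *Phf2* KO libraries, a log2 difference of 0.69 (standard error 0.44). It was 0.22 without WT replicate 2, 0.46 without *Phf2* KO replicate 1, 0.89 without *Phf2* KO replicate 2 and 1.37 without WT replicate 1. Within replicate 1 the ratio of *Phf2* KO to WT was 1.35 (95% counting interval 0.979 to 1.88), and within replicate 2 it was 2.19 (1.45 to 3.36). The other serum amyloid A genes, *Saa1*, *Saa2* and *Saa4*, had 0 counts in each library, and 1.87% of the 50-base stretches of *Saa3* occur in another gene, *Saa1*. The summed macrophage markers were 1.13 and 1.58 times the WT level in *Phf2* KO replicates 1 and 2, and their part in the difference of *Saa3* was not tested.

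*Lbp* encodes lipopolysaccharide-binding protein, which passes bacterial lipopolysaccharide to Cd14 and the Tlr4 receptor. On mm9, *Lbp* spans chr2:158132229-158158588 (forward strand, 15 exon blocks). *Lbp* counts in replicate 1 were 312 for WT and 185 for *Phf2* KO, and in replicate 2 they were 268 for WT and 237 for *Phf2* KO. Both *Phf2* KO libraries (8.93 and 9.86 CPM) were below both WT libraries (12.9 and 10.3 CPM). The log2 difference was -0.31 (standard error 0.18), and it was -0.48 without WT replicate 2 and -0.12 without WT replicate 1. The ratio was 0.690 (95% counting interval 0.572 to 0.830) within replicate 1 and 0.955 (0.798 to 1.14) within replicate 2.

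*Orm1* encodes orosomucoid 1, a plasma glycoprotein that carries drugs and lipids. On mm9, *Orm1* spans chr4:63005594-63009197 (forward strand, 6 exon blocks). It was counted once in *Phf2* KO replicate 1 and 0 times in the other 3 libraries, all under the floor, so no ratio is given. Its paralogs *Orm2* and *Orm3* had at most 1 count in any library, and 20.4% of the 50-base stretches of *Orm1* occur in these genes.

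**Figure D2:**
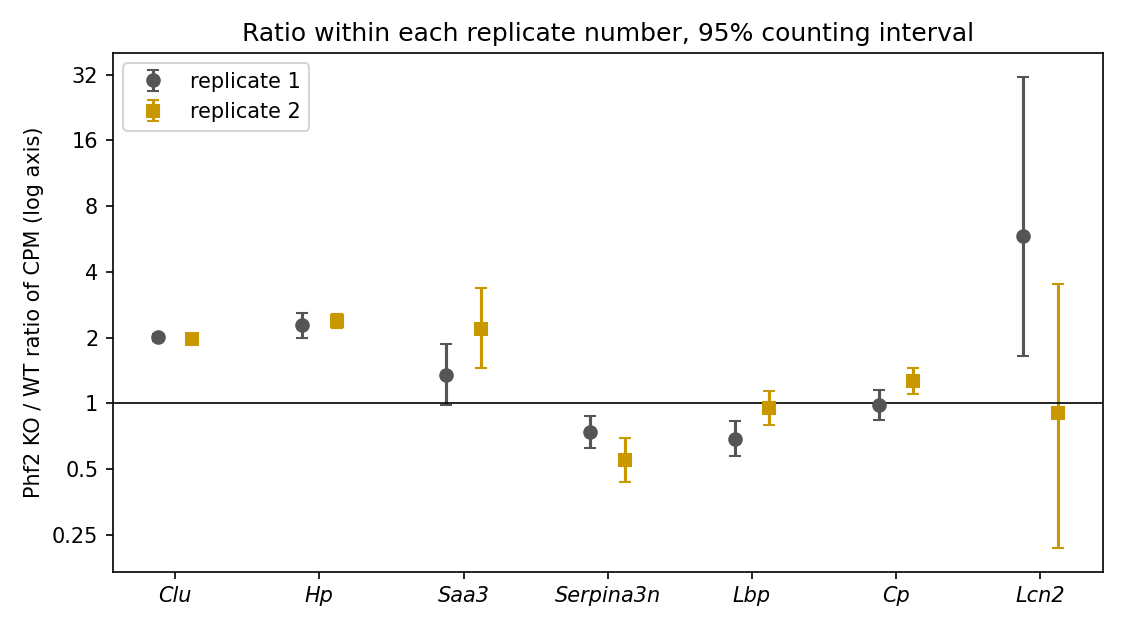
Ratio of normalized CPM in *Phf2* KO to WT within replicate 1 and within replicate 2 (log axis) for the 7 members other than *Orm1*, with 95% counting intervals, which do not cover differences between cultures. *Clu* and *Hp* lie between 1.96 and 2.39 in both numbers, *Serpina3n* below 1 in both, and the other members have an interval that includes 1 in at least 1 number.

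After the filter on low counts, 6 members were among the 13668 genes of the fit. edgeR's quasi-likelihood test with genotype as the only term called 0 of the 6 at an adjusted p-value under 0.1, where it called 0.00732% of all genes. At an unadjusted p-value under 0.05 it had 1 of the 6, *Clu*, beside 576 of all genes, or 4.21%. DESeq2 called 1 member, *Clu*, where it called 0.399% of genes with an adjusted p-value. The likelihood ratio test of edgeR also called *Clu*, and limma-voom called 0 members. With the replicate number as a block, *Clu*, *Hp* and *Saa3* were called higher (5.77% of genes) and *Serpina3n* lower (5.20% of genes). Both *Phf2* KO libraries were above both WT libraries for 2 of the 6, *Clu* and *Saa3*, as for 15.5% of genes, and below both for 1, *Lbp*, as for 18.0% of genes. The members were picked on this comparison, so nothing is read from these counts. The median log2 difference was 0.43 over the 6, with 4 higher and 2 lower, beside 0.01 over all genes tested.

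The replicate number was not the comparison the members were picked on, and each number holds 1 WT and 1 *Phf2* KO library. It was tested by the quasi-likelihood method of edgeR, with genotype in the fit. Of the 6 members, *Clu*, *Saa3* and *Serpina3n* were called higher in replicate 1, where 13.6% of genes were, and *Hp* was called lower, where 12.6% of genes were. *Hp* had the largest difference of the members, at a log2 difference of -1.41 (standard error 0.10), for which edgeR gave a Benjamini-Hochberg adjusted p = 4.26e-47. Replicate 2 exceeded replicate 1 by 2.59-fold for WT and 2.71-fold for *Phf2* KO, and both libraries of replicate 2 were above both of replicate 1. Of the 6 members, the numbers did not overlap for *Hp*, with replicate 1 lower, as for 25.4% of genes, and *Serpina3n*, with replicate 1 higher, as for 24.2% of genes. *Serpina3n* was 1.74-fold higher in replicate 1 in WT and 2.33-fold higher in *Phf2* KO, a log2 difference of 0.98 (standard error 0.15, adjusted p = 9.78e-10 from edgeR). *Saa3* differed by 0.73 log2 units (standard error 0.23, adjusted p = 0.00959 from edgeR), with ratios of 2.18 in WT and 1.35 in *Phf2* KO. *Clu* differed by 0.33 log2 units (standard error 0.09, adjusted p = 0.00107 from edgeR), with ratios of 1.24 and 1.27. For *Cp* and *Lbp* the test did not pass (adjusted p = 0.330 and 0.678 from edgeR), with log2 differences of -0.18 (standard error 0.12) and 0.11 (standard error 0.14).

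The fit with genotype and number has 1 residual degree of freedom. Both libraries of a number had the same sex by Y-linked genes and may come from 1 culture. The p-values between the numbers, here and below, therefore do not cover the spread between cultures. Without genotype in the fit, the standard error of *Hp* was 0.46 instead of 0.10, and 1 member was called, *Serpina3n*. DESeq2 with both terms called *Clu*, *Hp* and *Serpina3n* but not *Saa3*. With a library left out, the fit held the number alone, so that genotype was not balanced between the numbers. It then called 0 members without WT replicate 1, *Hp* and *Serpina3n* without WT replicate 2 or *Phf2* KO replicate 1, and *Clu* and *Saa3* without *Phf2* KO replicate 2, and *Clu* turned to -0.06 without WT replicate 2 and -0.25 without *Phf2* KO replicate 1. Macrophage markers moved with the replicate number: 14 of 14 tested were called higher in replicate 1, where 13.6% of genes were. Their sum was 4.61 times as high in replicate 1 as in replicate 2 in WT and 3.31 times as high in *Phf2* KO. The defining markers *Cd68*, *Adgre1* and *Csf1r* differed by 1.97, 2.28 and 2.11 log2 units. *Hp* went the other way. The part of macrophages, and of the sex of the embryos, in the differences of *Clu*, *Saa3*, *Serpina3n* and *Hp* was not tested.

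**Figure D3:**
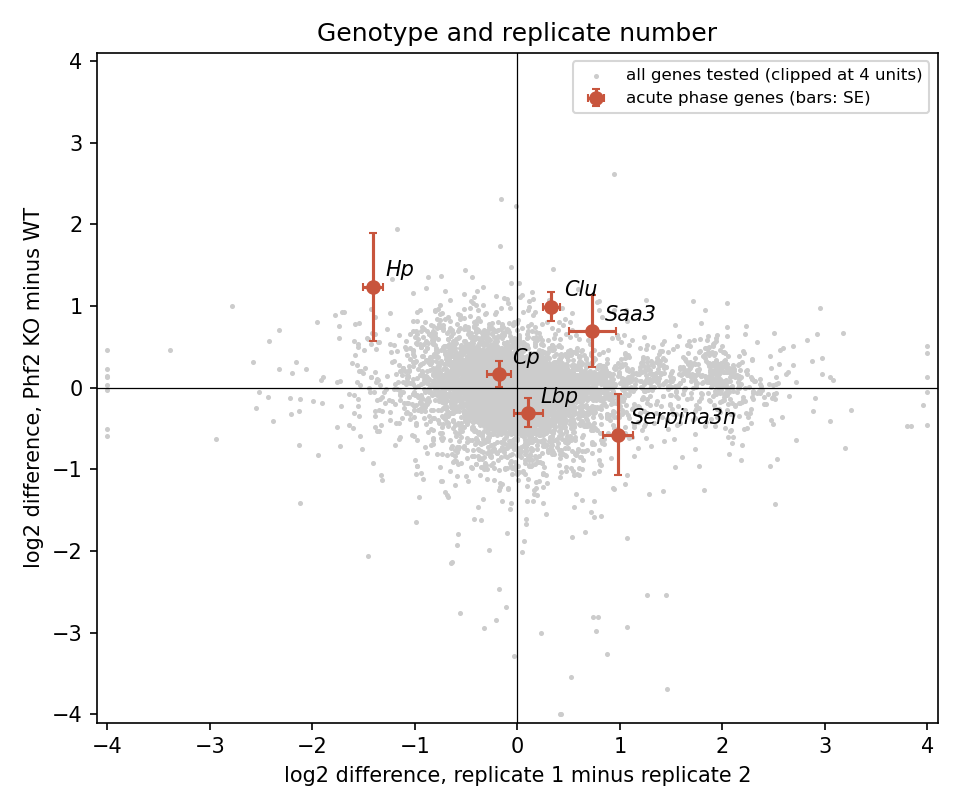
Log2 difference between *Phf2* KO and WT (vertical) against that between replicate 1 and replicate 2 (horizontal) for all genes tested (grey, drawn at the edge beyond 4 units) and the 6 tested members (red, with standard errors). *Hp* lies at -1.41 and 1.24, apart from the other members, while *Clu* has 0.99 for genotype and 0.33 for number.

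The genes with the most similar pattern were sought for the 3 members with the highest mean count, by the root mean square distance of centred log2 CPM over the 4 libraries, among 11556 genes whose mean count reached 50. For *Hp* the nearest was *Gabra3*, a GABA receptor subunit gene, at a distance of 0.113 log2 units, with 29 and 67 counts for WT and 57 and 163 for *Phf2* KO. *5031426D15Rik* (0.299) and *Tnfrsf25* (0.322) came next. For *Clu* the nearest were *4930486L24Rik* (0.156), *Degs2* (0.181) and *Clca3a1* (0.193). For *Cp* they were *Wdpcp* (0.0130), *Prpf39* (0.0184) and *Pde4a* (0.0189). Over 4 libraries such a distance describes these libraries only.

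Counts of other genes are given for replicate 1 and then replicate 2 of each group. Of 32 other positive acute phase genes in the table, 15 were at 3 counts or fewer in every library, among them *Apcs*, *Crp*, *Fga*, *Fgb*, *Fgg* and *Serpina1a*, which encode plasma proteins of the liver. In all, 10 passed the filter, and 0 of these were called between *Phf2* KO and WT by edgeR's quasi-likelihood test (0 at an unadjusted p-value under 0.05), with 4 higher and 6 lower and a median log2 difference of -0.10. DESeq2, the likelihood ratio test and limma-voom called 0 genes of this and the following lists. Among the most abundant per kilobase were *Serping1*, the C1 inhibitor (log2 difference -0.15, standard error 0.08) and *Ptx3*, a long pentraxin (-0.06, standard error 0.32). Between the replicate numbers, *Ptx3*, *C3*, *Cfb* and *Il1rn* were called higher in replicate 1 (13.6% of genes) and *Itih2* lower (12.6% of genes). *Ptx3* had 2020 and 1339 counts for WT and 1638 and 1223 for *Phf2* KO, a log2 difference of 0.67 between the numbers (adjusted p = 1.47e-13 from edgeR). Of 7 negative acute phase genes, whose plasma proteins fall in inflammation, *Alb*, *Ttr*, *Ahsg* and *Serpina6* were at 3 counts or fewer, and *Rbp4* and *Trf* were tested. *Trf*, transferrin, was higher in replicate 1 by 1.96 log2 units (adjusted p = 4.58e-87 from edgeR), and *Rbp4* had between 2 and 13 counts. Between *Phf2* KO and WT, edgeR's quasi-likelihood test called neither, and the block called *Trf* higher (5.77% of genes) and *Rbp4* lower (5.20% of genes).

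Among 32 genes of the inducing cytokines, their receptors and transcription factors, 27 were tested, and 0 were called between *Phf2* KO and WT by edgeR's quasi-likelihood test (0 at an unadjusted p-value under 0.05). The median log2 difference was 0.10, with 20 higher and 7 lower. The block called 3 higher (*Cebpd*, *Nfkbiz* and *Relb*) and *Il1r1* lower, where it called 5.77% and 5.20% of genes. The cytokine genes *Il6*, *Il1b* and *Osm*, named here after their values were seen, had at most 4, 2 and 11 counts in any library. Their receptor chains were counted well: *Il6st*, the signal-transducing chain shared by the interleukin-6 family, had 13353 and 12174 counts for WT and 9558 and 10199 for *Phf2* KO, a log2 difference of -0.21 (standard error 0.12). *Il1r1*, the interleukin-1 receptor, had 895 and 720 counts for WT and 528 and 532 for *Phf2* KO, a log2 difference of -0.45 (standard error 0.18). *Tnfrsf1a*, a receptor of tumour necrosis factor, had a log2 difference of 0.12 (standard error 0.09) and *Cebpd*, a C/EBP factor of this response, one of 0.32 (standard error 0.14). Between the numbers, *Tnf*, *Il6ra*, *Il1r1* and *Nfkb2* were called higher in replicate 1 (13.6% of genes), and *Ctf1*, *Clcf1*, *Lifr*, *Il11ra1* and *Nfkbiz* lower (12.6% of genes). The largest of these differences was that of *Tnf*, by 1.87 log2 units (67 and 14 counts for WT, 72 and 29 for *Phf2* KO, adjusted p = 7.10e-10 from edgeR).

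Of 34 receptors, ligands and metal-handling partners of the members, 25 were tested, and 0 were called between *Phf2* KO and WT by edgeR's quasi-likelihood test (0 at an unadjusted p-value under 0.05), with a median log2 difference of 0.15. The block called *Apoe*, *Ftl1*, *Slc22a17* and *Tfrc* higher (5.77% of genes) and *Vldlr* lower (5.20% of genes). *Cd163*, the receptor for haptoglobin bound to haemoglobin, had at most 2 counts in any library, and the globin genes *Hbb-b1* and *Hba-a1* had 0; these were also named after their values were seen. *Slc22a17*, a lipocalin 2 receptor, had 1049 and 1796 counts for WT and 1179 and 2165 for *Phf2* KO, a log2 difference of 0.38 (standard error 0.32). *Apoe*, whose protein like clusterin is an apolipoprotein, had 9821 and 7414 counts for WT and 11452 and 10724 for *Phf2* KO, a log2 difference of 0.53 (standard error 0.22). In the comparison of the numbers, 19 of the 25 were called higher in replicate 1 and 4 lower, where 13.6% and 12.6% of genes were. Those higher included *Trem2* (1.92 log2 units), *Cd36* (2.08) and *Cd14* (1.74), which macrophages express, and the iron genes *Tfrc* (1.72), *Slc40a1* (1.11), *Hmox1* (0.80), *Fth1* (0.71) and *Ftl1* (0.55). Those lower were *Slc22a17* (-0.67), *Ager* (-0.79), *Plxna4* (-0.38) and *Vldlr* (-0.21).

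**Figure D4:**
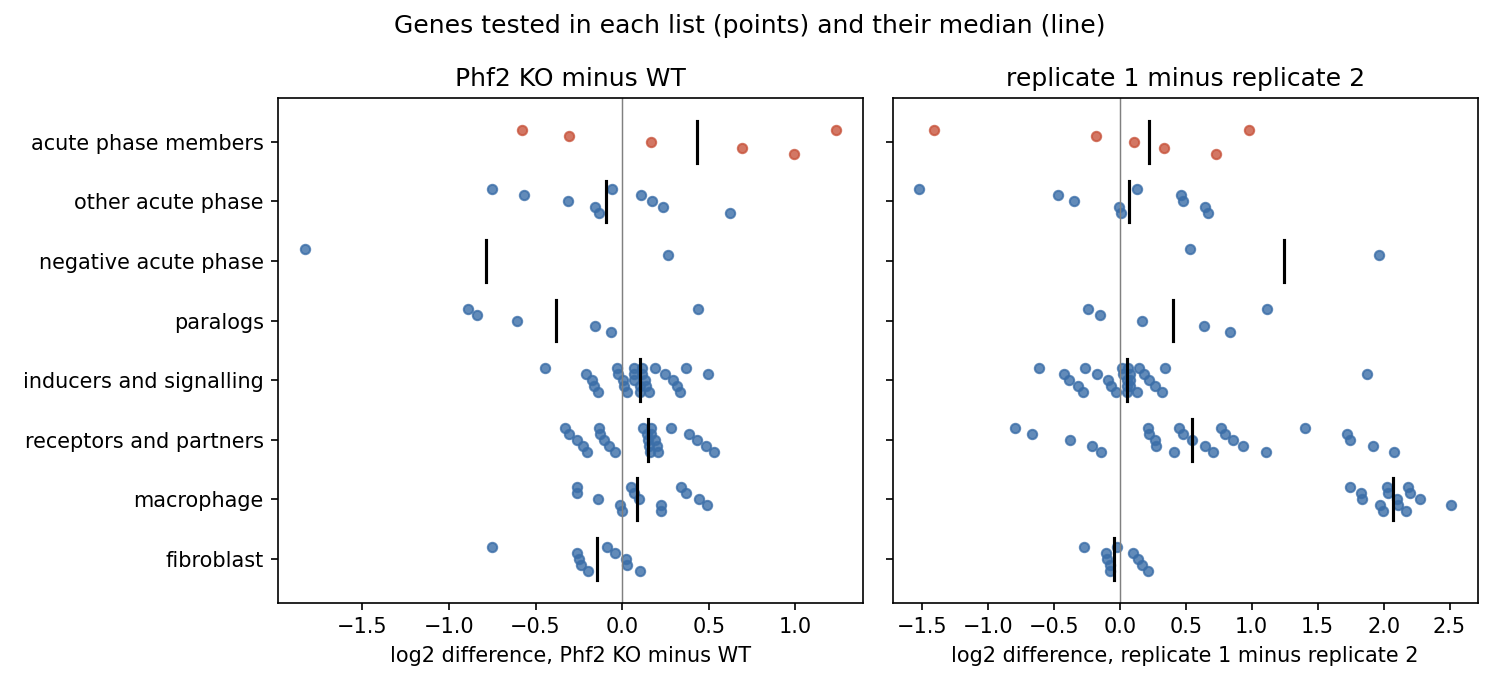
Log2 difference of each tested gene (points) and the median (line) for the 6 tested acute phase members and the other lists, between *Phf2* KO and WT (left) and between replicate 1 and replicate 2 (right). The macrophage markers lie together on the right, with a median of 2.07, while the members reach from -1.41 to 0.98 there and from -0.58 to 1.24 on the left.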

How the data were processed

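Per the labels and the study's methods, the authors used Trim Galore for trimming, Bowtie2 to take out reads of ribosomal RNA, STAR (reverse stranded) for alignment to mm9 and featureCounts for gene counts. Versions, the annotation release and the treatment of shared reads are not given in the sources used here. The deposited values are raw counts of 24391 symbols. The authors' own table of fold changes and p-values was not used.

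Tests were run with edgeR 4.0.16 under R 4.3.3 (filterByExpr, TMM, glmQLFit and glmQLFTest, Benjamini-Hochberg adjustment over 13668 genes, threshold 0.1), with DESeq2 1.42.0 and limma 3.58.1 as alternatives. The steps were run on simulated counts with a fixed spread. Where genotype was changed in them, the replicate numbers did not differ, unlike in these libraries. The simulation therefore checks the code and does not show which differences could be found here. Genotype was the only term of the main comparison, and replicate number was tested with genotype in the fit. The standard errors are of the log2 difference. Counting intervals are exact (Clopper-Pearson, 95%) and cover counting error only, since reads are not independent molecules. Positions and exon lengths are from GENCODE on mm9, where 12603 of the 13668 tested symbols had a length. An exon length covers the merged exons of all annotated transcripts of a gene, so it can exceed the transcript that was expressed. The members, lists and motifs were chosen with earlier results of these data known, and the form of the C/EBP motif was settled after a first scan. The genes named come from the members, *Phf2*, their paralogs, in each list the 3 most abundant per kilobase and those called in either comparison, the defining markers and the genes nearest in pattern, and genes outside this rule are marked as such. Results for some genes of the lists are not reported here.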

Additional observations from a re-analysis of the deposited data

Results flagged for a closer look

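Within the replicate numbers, the ratio of *Phf2* KO to WT lay on opposite sides of 1 beyond the counting interval for *Cd36*, a gene of the list of receptors and partners, and for none of the members. The log2 ratio of *Cd36*, a scavenger receptor, was -0.29 in replicate 1 (1879 counts in WT, 1320 in *Phf2* KO) and 0.52 in replicate 2 (361 and 479). With 1 library of each genotype in each number, the difference between the numbers was not tested.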

How the results depend on the processing

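For *Phf2* KO against WT, 1 gene and 0 members were called, and the gene called was not *Phf2*. Thresholds of 0.05 and 0.01 and limma-voom called 0 genes, DESeq2 64 genes and 1 member, and the likelihood ratio test 41 genes and 1 member. With each library left out in turn, between 0 and 0 genes and members were called. With the replicate number as a block, 1500 genes and 4 members were called. The titles give the numbers but no pairing, and the libraries of each number were of the same sex by Y-linked genes. The difference between replicates 1 and 2 was correlated between WT and *Phf2* KO across 11556 genes, which are not independent (Pearson's r = 0.682), so the pairing rests on the counts alone. The log2 difference of *Cp* turned to -0.023 without *Phf2* KO replicate 2 and reached 0.33 without *Phf2* KO replicate 1.

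Between the numbers, 3580 genes and 4 members were called. A threshold of 0.01 gave 2135 genes, DESeq2 1361, and the number alone 1445 genes and 1 member. With a library left out, fits that hold the number alone, so that genotype is unbalanced between the numbers, gave between 1114 and 1521 genes and between 0 and 2 members. There the log2 difference of *Clu* turned to -0.06 without WT replicate 2 and to -0.25 without *Phf2* KO replicate 1 (range -0.25 to 0.92), that of *Cp* to 0.0094 without *Phf2* KO replicate 2 (range -0.34 to 0.0094) and that of *Lbp* to -0.17 without WT replicate 1 (range -0.17 to 0.36). *Hp*, *Saa3* and *Serpina3n* kept their direction in both comparisons under each alternative run. For *Phf2* KO against WT, the log2 differences of genes shifted by a median of 0.007 with RLE size factors and -0.011 with library size alone. *Lcn2* and *Orm1* did not pass the filter on low counts. With all genes of at least 1 count or DESeq2, 8 members were in the fit and neither of these was called in either comparison.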
